A study of Mus musculus with 6 samples.

Results

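Aerocytes, or aCAP cells, are a specialised capillary endothelium of the lung alveolus, and the cells described here are aCAP-like cells from scRNA-seq libraries of WT and TNF-Tg mouse lungs. They were chosen by the genes detected in each cell, since no annotation of single cells was used. A cell was a member when it held at least 500 genes and at most 10% mitochondrial UMIs, 3 or more of 5 endothelial genes (*Cdh5*, *Cldn5*, *Egfl7*, *Pecam1*, *Tie1*), and at least 3 of the 6 aCAP genes *Car4*, *Fibin*, *Emp2*, *Tbx2*, *Chst1*, and *Apln*, where a gene counted as detected from 1 UMI. A cell left the set with 2 or more arterial genes (*Gja5*, *Bmx*, *Dkk2*), venous genes (*Selp*, *Bst1*, *Amigo2*, *Lhx6*), proliferation genes (*Mki67*, *Top2a*, *Cenpf*), or epithelial genes (*Epcam*, *Cdh1*, *Nkx2-1*). In all, 5478 cells met the rule, which is 14.3% of the 38208 cells that passed the filter and 19.2% of the 28498 endothelial cells among them. The levels of these 24 genes chose the members, so they are described below with no test.

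Each of the 6 libraries pooled lung cells of several female mice of 1 genotype and age, either WT littermates or TNF-Tg mice, at 8, 14, or 20 weeks. TNF-Tg mice carry a human TNF transgene and are used as a model of chronic inflammation with arthritis and lung disease, whereas the WT littermates lack it. Every group had been sorted as live cells (7-AAD-) negative for the leukocyte marker CD45 and the epithelial marker CD326, so the sort was meant to leave endothelial and mesenchymal cells. Since there was 1 library for each genotype and age, the 3 ages of a genotype served as its replicates (n = 3 libraries a genotype), mice could not be told apart within a pool, and p-values measure only the spread between these libraries, age included.

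The alveolar capillary net is a mosaic of aCAP cells, which are large, thin, and specialised for gas exchange, and general capillary (gCAP) cells, which are smaller and act as progenitors during maintenance and repair. aCAP cells are known for the carbonic anhydrase *Car4*, the endothelin B receptor *Ednrb*, the VEGF receptor *Kdr*, and the peptide *Apln*, whose receptor *Aplnr* marks gCAP cells. They depend on VEGFA from the alveolar epithelium, and they lie on a basement membrane fused with that of the epithelium.

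There were 1041, 895, and 920 aCAP-like cells in the WT libraries at 8, 14, and 20 weeks, while the TNF-Tg libraries held 1063, 897, and 662. A WT member had a median of 6060, 5991, and 6272.5 UMIs in order of age, and a TNF-Tg member had 10063, 8973, and 8516.5, so the TNF-Tg cells were the deeper ones at every age. The summed members gave 7318723, 6154405, and 6405877 UMIs in WT and 11764758, 9413289, and 6337842 in TNF-Tg. Levels are given as CPM, the UMIs of a gene scaled to a common total per library, in the order of 8, 14, and 20 weeks. Any pair of libraries shared at most 1 member barcode, and 6 to 24 barcodes over all cells. The exclusions removed 15, 15, and 12 cells in WT and 68, 53, and 54 in TNF-Tg, of which 4, 0, and 2 and 48, 29, and 17 had proliferation genes. Scrublet called 13.1, 14.1, and 12.2% of the WT members and 14.2, 12.04, and 11.5% of the TNF-Tg members doublets, against 5.15, 4.84, and 5.57% and 5.28, 4.66, and 5.07% of all cells, and these were kept in the main comparison.

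Transcripts of other cell types were present and differed between libraries. The summed level of the 8 immune markers was 13.9, 2.44, and 1.72 CPM in WT against 23.2, 44.7, and 389 CPM in TNF-Tg, so the TNF-Tg library of 20 weeks stood apart, and their most abundant gene was the myeloid lysozyme *Lyz2* with 2.87, 1.62, and 1.72 CPM in WT against 5.78, 27.6, and 246 CPM in TNF-Tg. The complement gene *C1qa* was at 0, 0, and 0 CPM in WT against 0.255, 1.38, and 74.6 CPM in TNF-Tg, and the leukocyte gene *Ptprc* was at 0.4099, 0, and 0 CPM in WT against 2.805, 0.956, and 7.89 CPM in TNF-Tg. The 8 mesenchymal markers summed to 816, 531, and 522 CPM in WT against 905, 1584, and 963 CPM in TNF-Tg, the highest in TNF-Tg of 14 weeks, where smooth muscle actin (*Acta2*) was at 727 CPM against 139, 54.4, and 99.3 CPM in WT. The 4 lymphatic markers, led by *Ccl21a*, summed to 1.64, 5.200, and 2.19 CPM in WT against 1.87, 40.2, and 43.9 CPM in TNF-Tg. The 4 haemoglobin genes summed to 4764, 53.8, and 185 CPM in WT against 2465, 31.3, and 52.7 CPM in TNF-Tg, so these transcripts were highest at 8 weeks in both genotypes and lower in TNF-Tg at every age. The 7 other epithelial markers summed to 30.3, 42.1, and 24.04 CPM in WT against 27.1, 88.3, and 23.5 CPM in TNF-Tg, and *Epcam* was at 0 in every library. The part of these transcripts in the results that follow was not tested.

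The number of aCAP genes in a cell graded the members. Cells with exactly 3 of the 6 genes numbered 1297, and 888, 1372, and 1921 had 4, 5, and 6, while 4309 further endothelial cells with exactly 2 lay just outside. Of the 8 aerocyte markers that the rule did not use, 7 were higher in cells with 4 aCAP genes than in cells with 3 in each of the 6 libraries, and *Hpgd* was lower in each. *Ednrb* was at 20.9, 17.9, and 15.7 CPM in WT cells with 2 aCAP genes, 83.8, 61.4, and 63.3 CPM with 3, 563, 720.0, and 484 CPM with 4, and 1453, 1565, and 1554 CPM with 6. *Kdr* was at 453, 492, and 521 CPM in WT cells with 3 and 2871, 2796, and 2960.4 CPM in WT cells with 6. *Hpgd* went from 2856, 2761, and 3269 CPM in WT cells with 3 to 1790.4, 1774, and 1576 CPM in WT cells with 6. The gCAP marker *Gpihbp1*, a lipase-binding protein of the capillary surface, ran the other way, from 986, 983, and 1017 CPM with 3 to 262, 249, and 195 CPM with 6. Of the members with exactly 3 aCAP genes, 89.7, 85.1, and 91.7% in WT and 91.9, 78.6, and 76.4% in TNF-Tg also held 3 or more of 8 gCAP markers, against 97.1, 98.98, and 99.1% and 97.4, 93.3, and 94.8% just outside. The 3293 members with 5 or more aCAP genes thus had the highest levels of held-out markers such as *Ednrb* and *Kdr* but the lowest of *Hpgd* in WT, whereas the members with exactly 3 lay close to the cells just outside, against the aCAP name. Results that depend on this are also given for the members with 5 or more aCAP genes, or with fewer than 3 gCAP markers. These gradings are descriptions of how the rule acted and carry no test.

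**Figure D1:**
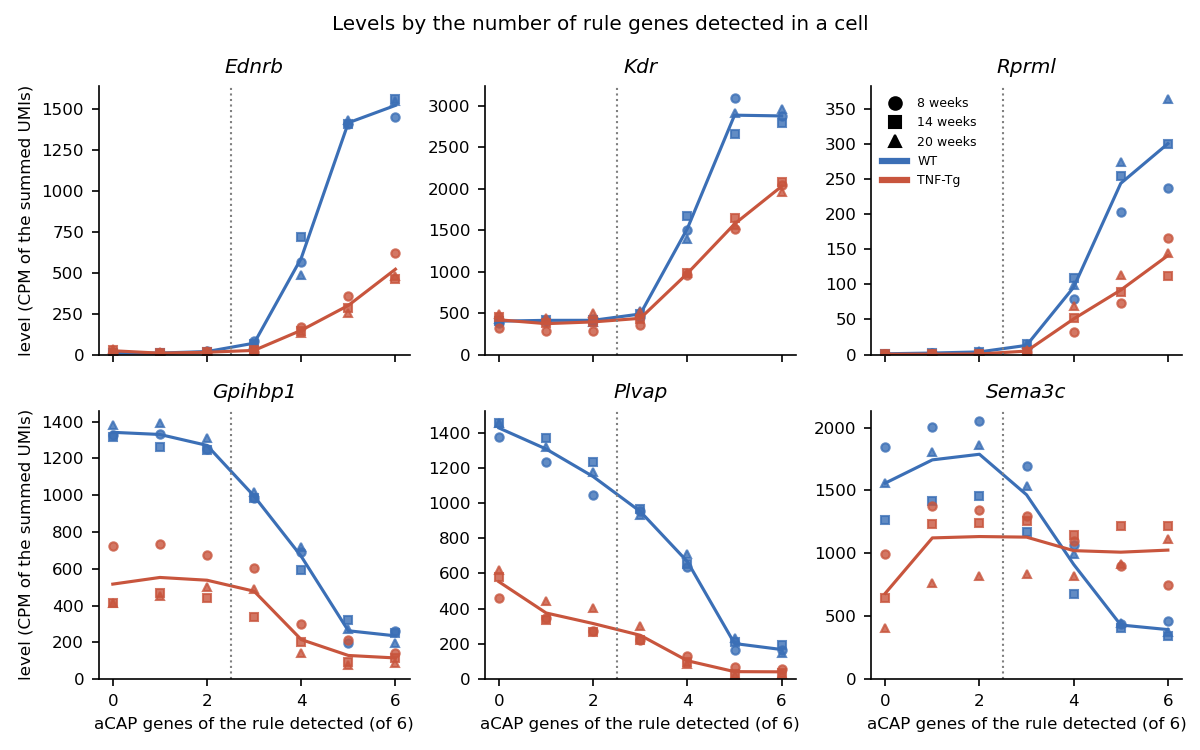
Level (CPM of the summed UMIs, y axis) of 6 genes that the rule did not use in endothelial cells, by how many of the 6 aCAP genes a cell held (x axis). Points are libraries, shaped by age and coloured by genotype, lines join the means of a genotype, and cells right of the dotted line are members. Levels of *Ednrb*, *Kdr*, and *Rprml* are higher with 4 or more aCAP genes than with 3 and are lower in TNF-Tg there, *Gpihbp1* and *Plvap* decline, and *Sema3c* declines in WT and in TNF-Tg of 8 weeks (1374 CPM with 1 aCAP gene and 747 CPM with 6) but not in TNF-Tg of 14 or 20 weeks.

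The aCAP genes of the rule differed in how they lay between the genotypes, which is given as a description because each had a part in choosing the cells. *Car4*, a carbonic anhydrase anchored at the luminal surface, was at 1577, 1678, and 1988 CPM in WT against 1644, 1684, and 1534 CPM in TNF-Tg. *Apln*, the ligand of the apelin receptor, was at 288, 211, and 310.5 CPM in WT against 327, 228, and 335 CPM in TNF-Tg. Both sets of libraries overlapped for these genes. *Fibin*, a secreted protein, was at 751, 1072, and 989.7 CPM in WT against 303, 271, and 160.1 CPM in TNF-Tg, and every TNF-Tg library lay below every WT library. The same order held for *Emp2*, a tetraspan membrane protein (3109.6, 3242, and 3628 CPM in WT against 2201, 1923, and 1734 CPM in TNF-Tg), for the T-box factor *Tbx2* (531, 466, and 501 CPM in WT against 442, 404, and 386 CPM in TNF-Tg), and for the sulfotransferase *Chst1* (211, 218, and 219 CPM in WT against 135, 137, and 144 CPM in TNF-Tg). In gCAP comparison cells, which had 3 or more gCAP markers and at most 1 aCAP gene and numbered 18271, *Apln* was at 1.57, 1.55, and 1.31 CPM in WT against 2.76, 9.21, and 54.1 CPM in TNF-Tg, so its level there was highest in TNF-Tg of 20 weeks.

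TNF-Tg aCAP-like cells carried less of most aCAP markers that the rule had left aside. Of the 12018 genes tested between the genotypes, 24% were called in edgeR, with 12.5% higher and 11.5% lower in TNF-Tg, and the median log2 fold change over all genes was 0.0039. These are 1501 genes higher and 1383 lower, which became 995 and 940 without WT of 8 weeks, 835 and 784 without WT of 14 weeks, and 840 and 800 without WT of 20 weeks. Of the 8 held-out aCAP markers, 6 fell and 0 rose, with a median log2 fold change of -1.10. Without TNF-Tg of 8 weeks 6 fell and 1 rose (median -1.12). *Ednrb*, the endothelin B receptor that clears and senses endothelins (ENSMUSG00000022122, chr14:103814625-103844402, minus strand, GRCm38), was at 1019, 1066, and 1069.6 CPM in WT against 339.9, 231, and 202 CPM in TNF-Tg. The WT values lay within a narrow band and all 3 TNF-Tg values lay far below it (difference -2.05 ± 0.18 on the log2 scale, adjusted p = 0.000225). *Kdr*, the main VEGFA receptor (ENSMUSG00000062960, chr5:75932827-75978458, minus strand), was at 2179, 2078, and 2213 CPM in WT against 1327, 1274, and 1185 CPM in TNF-Tg and fell (-0.80 ± 0.08 on the log2 scale, adjusted p = 0.000364). Its groups did not overlap, as was the case for 42% of all genes tested.

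*Hpgd*, which inactivates prostaglandins, was at 2061, 2000.4, and 2037 CPM in WT against 978, 516, and 295 CPM in TNF-Tg and fell (-1.79 ± 0.36 on the log2 scale, adjusted p = 0.00837), and it was lower at each later age in TNF-Tg while the WT libraries stayed level. It is not particular to aCAP-like cells, since gCAP comparison cells carried 3341, 3015, and 3704 CPM in WT against 1714, 767, and 359 CPM in TNF-Tg. *Rprml*, a relative of the cell-cycle protein reprimo, was at 159, 197, and 238 CPM in WT against 83.7, 62.5, and 76.4 CPM in TNF-Tg (-1.44 ± 0.17 on the log2 scale, adjusted p = 0.000724). The cyclin-dependent kinase inhibitor *Cdkn2b* was at 164, 151, and 160.2 CPM in WT against 60.6, 50.5, and 73.1 CPM in TNF-Tg (-1.39 ± 0.13 on the log2 scale, adjusted p = 0.000274). These 3 genes were lower in every TNF-Tg library than in any WT library. The T-box factor *Tbx3* also fell, at 852, 909, and 847 CPM in WT against 679.6, 700.1, and 610.0 CPM in TNF-Tg (-0.41 ± 0.09 on the log2 scale, adjusted p = 0.0118). Periaxin (*Prx*), a scaffold protein, was at 532, 476, and 514 CPM in WT against 502, 547, and 559 CPM in TNF-Tg (0.06 ± 0.09 on the log2 scale, adjusted p = 0.701), and the KIT ligand *Kitl* was at 1136, 1196, and 1369.7 CPM in WT against 1256, 1651, and 1536 CPM in TNF-Tg (0.24 ± 0.12 on the log2 scale, adjusted p = 0.189), and neither passed the threshold. In the members with 5 or more aCAP genes, *Ednrb* differed by -1.86 (adjusted p = 6.63e-05) and 6 of the 8 markers again fell, with a median of -0.98, and in the members with fewer than 3 gCAP markers the median was -1.04.

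**Figure D2:**
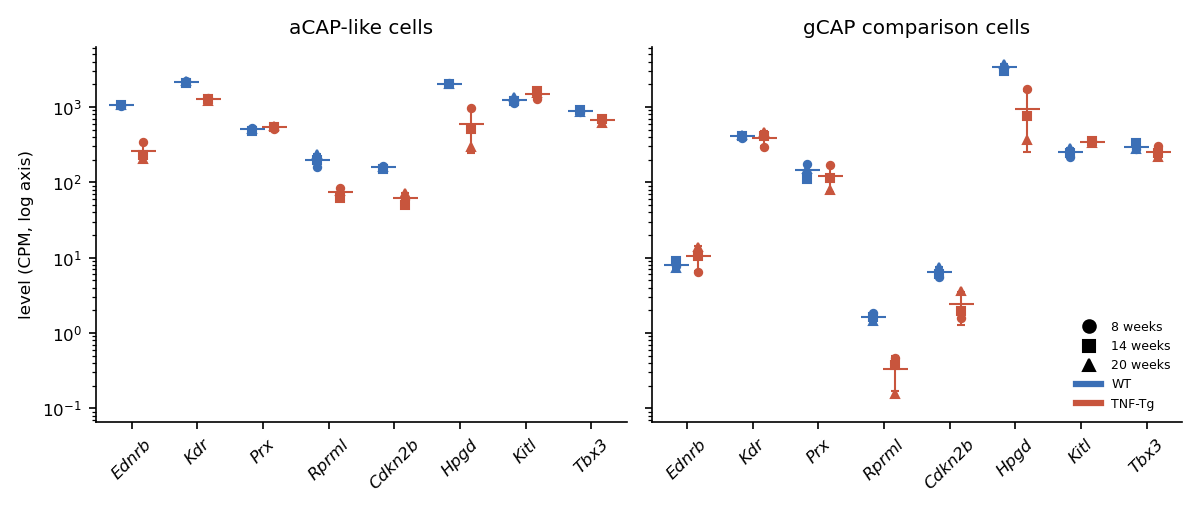
Level (CPM, log axis) of the 8 aCAP markers outside the rule in aCAP-like cells (left) and gCAP comparison cells (right). Points are libraries, shaped by age and coloured by genotype, and bars give the mean and SD of the 3 libraries of a genotype. In aCAP-like cells *Ednrb*, *Kdr*, *Rprml*, *Cdkn2b*, *Hpgd*, and *Tbx3* are lower in TNF-Tg, *Ednrb*, *Rprml*, and *Cdkn2b* are scarce in gCAP comparison cells, and *Hpgd* is as abundant there as in aCAP-like cells or more so.

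Of 8 gCAP markers inside aCAP-like cells, 3 fell and 1 rose, with a median log2 fold change of -0.54. Over all genes 11.5% fell and 12.5% rose. With cells thinned to 2000 UMIs 4 of the 8 markers fell and 1 rose (median -0.98). Without TNF-Tg of 8 weeks 6 fell and 1 rose (median -0.84). *Gpihbp1* was at 471, 482, and 458 CPM in WT against 304, 195, and 223 CPM in TNF-Tg (-0.99 ± 0.16 on the log2 scale, adjusted p = 0.00323). The endothelial phosphatase *Ptprb* was at 801, 1057, and 908 CPM in WT against 241, 215, and 173 CPM in TNF-Tg (-2.16 ± 0.15 on the log2 scale, adjusted p = 8.84e-05), and *Plvap*, which forms the diaphragms of caveolae and fenestrae, was at 407, 437, and 406 CPM in WT against 116, 103, and 126 CPM in TNF-Tg (-1.88 ± 0.11 on the log2 scale, adjusted p = 3.33e-05). For all 3 genes the genotypes did not overlap. The guidance molecule *Sema3c* was at 821, 593, and 726 CPM in WT against 975, 1216, and 908 CPM in TNF-Tg and rose (0.51 ± 0.15 on the log2 scale, adjusted p = 0.0363), and in members with 5 or more aCAP genes the difference was 1.27 (adjusted p = 0.000523). *Sema3c* lost its edgeR call without WT 14, WT 20, or TNF-Tg 14 (0.38 to 0.52), where WT 14 stands for the WT library of 14 weeks, and so on, and parentheses give the log2 fold change without any of those libraries. With age as a block in the model its adjusted p was 0.0526. The apelin receptor *Aplnr* was at 46.3, 48.4, and 46.5 CPM in WT against 81.6, 35.6, and 33.1 CPM in TNF-Tg, with TNF-Tg of 8 weeks above WT and the later ages below it (0.09 ± 0.31 on the log2 scale, adjusted p = 0.875), and without TNF-Tg of 8 weeks it was lower (-0.48, adjusted p = 0.00499). In gCAP comparison cells *Sema3c*, a gene of the rule for those cells and so not tested there, was at 1948, 1361, and 1713 CPM in WT against 1251, 1092, and 647 CPM in TNF-Tg. The 3 markers that fell are not particular to aCAP-like cells. In endothelial cells with 0 aCAP genes *Ptprb* was at 2958, 3300, and 2965 CPM in WT against 927, 486, and 498 CPM in TNF-Tg. *Plvap* was at 1372, 1451, and 1453 against 461, 579, and 617 CPM there, and *Gpihbp1* at 1328, 1317, and 1381 against 724, 412, and 413 CPM. These levels were not tested.

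The share of members that held 2 or more of the 8 gCAP markers was measured with every cell thinned to 2000 UMIs, because the TNF-Tg cells were deeper. It was 45.6%, 49.8%, and 46.3% in WT (47.2% ± 2.28, SD, n = 3) and 45.5%, 47.2%, and 39.5% in TNF-Tg (44.0% ± 4.02, SD, n = 3), a difference of -3.17 percentage points (2-sided exact permutation p = 0.4, where 0.1 is the smallest possible). The genotypes overlapped, also in the members with 5 or more aCAP genes, where the difference was -5.50 points (exact permutation p = 0.2). With all members it was -0.90 points without TNF-Tg of 20 weeks and -4.73 points without TNF-Tg of 14 weeks. In the latter case the genotypes did not overlap (exact permutation p = 0.2, the smallest possible there). Without thinning the shares were 61.5%, 69.3%, and 60.7% in WT and 69.8%, 72.9%, and 59.1% in TNF-Tg, which turned the direction (3.46 points, exact permutation p = 0.6). With every cell thinned to 1000 UMIs they were 37.5%, 37.0%, and 38.1% in WT and 35.1%, 32.8%, and 28.9% in TNF-Tg, where the genotypes did not overlap (-5.27 points, exact permutation p = 0.1, the smallest possible). At 2000 UMIs *Sema3c* was detected in 54.3, 44.4, and 50.5% of WT members against 77.2, 83.2, and 74.1% in TNF-Tg. *Ptprb* ran the other way, with 38.9, 47.3, and 42.0% against 23.9, 18.5, and 16.7%. The number of members with gCAP traits and the level of these markers in a cell thus cannot be told apart in this share. The same limit applies where members with 3 or more gCAP markers are left out.

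Among the genes of largest rise, 3 were nearly silent in WT aCAP-like cells. The monocyte chemokine *Ccl2* was at 0, 0.487, and 0 CPM in WT against 17.1, 53.8, and 123 CPM in TNF-Tg, which is 3 UMIs in all WT members and 1487 in all TNF-Tg members, a ratio of CPM of 358 with an exact 95% interval of 122 to 1738 for counting error only (edgeR adjusted p = 0.00171). *Prnd*, which encodes the prion-like protein doppel, was at 0.4099, 0, and 0.781 CPM in WT against 70.5, 118, and 154 CPM in TNF-Tg (8.07 ± 0.51 on the log2 scale, adjusted p = 5.59e-05). *Cyfip2*, a regulator of actin assembly, was at 0.137, 1.46, and 2.19 CPM in WT against 169, 61.9, and 69.4 CPM in TNF-Tg (6.33 ± 0.63 on the log2 scale, adjusted p = 0.000344). Each of these genes was near 0 in WT and well above it in every TNF-Tg library. A value alone in parentheses after a gene is, here and in what follows, its log2 fold change called in edgeR. The others of largest rise were *Lyz2* (5.40), *Gm46565* (4.42), the calcium-binding protein gene *S100a4* (4.27), *Lhfpl2* (4.10), and the perlecan gene *Hspg2* (4.004). Of these, *Lyz2* is a gene of the immune marker list, and *S100a4* is abundant in leukocytes and fibroblasts as well. *Lyz2* lost its edgeR call without WT 8, WT 14, or WT 20 (5.26 to 5.73). It also lost it with fewer than 3 gCAP markers (3.34, adjusted p = 0.0656), while *S100a4* differed by 6.15 with 5 or more aCAP genes.

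The genes of largest fall were led by a hyaluronan receptor and a clotting protein. The hyaluronan receptor *Lyve1* was at 192, 249, and 179.5 CPM in WT against 16.3, 3.29, and 4.58 CPM in TNF-Tg (-4.62 ± 0.48 on the log2 scale, adjusted p = 0.00043), and von Willebrand factor (*Vwf*), a clotting protein, was at 86.2, 121, and 74.9 CPM in WT against 4.25, 3.19, and 4.89 CPM in TNF-Tg (-4.55 ± 0.23 on the log2 scale, adjusted p = 2.35e-05). In gCAP comparison cells *Vwf* was at 437, 537, and 494 CPM in WT against 27.7, 23.7, and 18.7 CPM in TNF-Tg, so it was higher there in WT than in aCAP-like cells. With the members holding 3 or more gCAP markers left out, *Vwf* differed by -1.58 (adjusted p = 0.0652). The methyltransferase gene *Inmt* was at 199, 206, and 137 CPM in WT against 7.56, 3.19, and 14.8 CPM in TNF-Tg (-4.50), nephronectin (*Npnt*), an integrin ligand of the basement membrane, was at 85.3, 69.2, and 66.8 CPM in WT against 4.67, 5.63, and 3.94 CPM in TNF-Tg (-3.96), and the transporter gene *Abcc3* was at 50.6, 56.1, and 56.8 CPM in WT against 8.41, 5.84, and 4.42 CPM in TNF-Tg (-3.10). Their groups stood far apart. *Hsd11b1*, which regenerates active glucocorticoid (-4.41), the hedgehog inhibitor *Hhip* (-4.14), and *Gpx3*, a secreted peroxidase (-3.12), completed the list. Of these, *Inmt* is also a gene of lung fibroblasts. The mesenchymal marker *Pdgfra* was called lower in aCAP-like cells too, though not in every setting. The part of fibroblast transcripts in the fall of *Inmt*, or of any other gene of this list, was not tested.

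TNF acts through the receptors TNFR1 (*Tnfrsf1a*) and TNFR2 (*Tnfrsf1b*) and activates the transcription factor NF-kB, whose targets include its own inhibitors. Of the 22 genes tested in this pathway, 17 rose and 1 fell in TNF-Tg aCAP-like cells, with a median log2 fold change of 1.63, against 12.5% and 11.5% of all genes, which are also the background for the counts of the lists that follow. In members with 5 or more aCAP genes 16 of 21 rose, and with fewer than 3 gCAP markers 13 of 18 did. *Tnfrsf1a* was the member that fell, at 219, 224, and 217 CPM in WT against 156, 161, and 157 CPM in TNF-Tg (-0.50 ± 0.08 on the log2 scale, adjusted p = 0.00365). *Tnfrsf1b* was at 1.503, 1.95, and 0.624 CPM in WT against 3.74, 6.59, and 7.57 CPM in TNF-Tg and rose (2.08 ± 0.43 on the log2 scale, adjusted p = 0.00967), by 3.12 in members with 5 or more aCAP genes. Mouse *Tnf* itself was at 0.956, 0, and 0.156 CPM in WT against 2.63, 8.82, and 4.73 CPM in TNF-Tg, or 8 UMIs in WT and 144 in TNF-Tg (3.68 ± 0.79 on the log2 scale, adjusted p = 0.0111), and as a mouse gene it does not check the human transgene. *Tnf* lost its edgeR call without WT 20 (3.34).

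Among the 17 list members that rose were inhibitors that NF-kB is known to induce, which were not tested as a group. *Nfkbie* was at 9.15, 9.26, and 7.34 CPM in WT against 60.2, 47.2, and 60.3 CPM in TNF-Tg (2.68 ± 0.15 on the log2 scale, adjusted p = 3.33e-05). *Tnfaip3*, which encodes the ubiquitin-editing enzyme A20, was at 13.9, 12.3, and 14.5 CPM in WT against 70.3, 73.2, and 88.04 CPM in TNF-Tg (2.47 ± 0.12 on the log2 scale, adjusted p = 2.35e-05). Its partner *Tnip1* was at 26.1, 21.8, and 26.4 CPM in WT against 102, 95.7, and 112 CPM in TNF-Tg (2.03 ± 0.11 on the log2 scale, adjusted p = 2.82e-05), and *Nfkbia*, which encodes the inhibitor IκBα, was at 375, 357, and 346 CPM in WT against 644, 563, and 693 CPM in TNF-Tg (0.79 ± 0.10 on the log2 scale, adjusted p = 0.00118). All 3 TNF-Tg libraries lay above all 3 WT libraries for each of them. The subunit genes *Nfkb2* (1.78) and *Relb* (1.55), the survival gene *Birc3* (1.63), *Bcl3* (1.63), and the macrophage growth factor *Csf1* (1.25) also rose. Of the leukocyte ligands, *Cxcl1* was at 0.273, 0.325, and 0.468 CPM in WT against 8.07, 8.39, and 24.5 CPM in TNF-Tg (5.16 ± 0.66 on the log2 scale, adjusted p = 0.00105), and the adhesion molecule *Vcam1* was at 18.4, 15.1, and 14.8 CPM in WT against 32.7, 60.3, and 103 CPM in TNF-Tg (1.97 ± 0.37 on the log2 scale, adjusted p = 0.00636), higher at each later age in TNF-Tg, with a difference of 3.60 (adjusted p = 0.000424) in members with 5 or more aCAP genes. *Icam1*, another adhesion molecule, was at 279.7, 283, and 341 CPM in WT against 398, 329, and 396 CPM in TNF-Tg, with overlapping groups (0.29 ± 0.12 on the log2 scale, adjusted p = 0.128). *Tnfaip3*, *Tnip1*, *Nfkbia*, and the other members of this list given outside the naming rule were picked after their values were seen.

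The promoters of 3 of these inhibitor genes are shown because the genes rose together and each promoter holds a match to the letters of an NF-kB site. The window of *Nfkbie*, the inhibitor gene of largest rise, and a second window of *Tnfaip3* hold no such letters and are not shown. Each sequence runs 5′ to 3′ on the strand of the gene over the 100 bases before the RefSeq start (GRCm38.p6), all on the minus strand, namely *Nfkbia* at chr12:55492648-55492747, *Tnfaip3* at chr10:19015411-19015510, and *Tnip1* at chr11:54962941-54963040. Capitals mark a match to GGGNNTTNCC or its reverse complement GGNAANNCCC, which begins at position -29 for *Nfkbia*, position -12 for *Tnfaip3*, and position -57 for *Tnip1* relative to the start.
Nfkbia: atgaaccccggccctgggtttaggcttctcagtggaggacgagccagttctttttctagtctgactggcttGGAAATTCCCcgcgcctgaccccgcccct
Tnfaip3: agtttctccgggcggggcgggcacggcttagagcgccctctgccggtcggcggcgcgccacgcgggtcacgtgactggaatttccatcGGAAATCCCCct
Tnip1: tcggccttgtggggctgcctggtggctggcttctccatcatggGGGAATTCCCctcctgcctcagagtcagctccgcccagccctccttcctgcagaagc

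Both strands of promoter windows from 250 bases before to 50 bases after the start were searched for these letters, which stand for a common form of the NF-kB site. They were present in at least 1 promoter window of 5.48% of the 27025 genes with a RefSeq promoter, and in 9 of the 20 list members with an entry, namely *Nfkb2*, *Nfkbia*, *Bcl3*, *Tnfaip3*, *Tnip1*, *Traf2*, *Cxcl1*, *Csf1*, and *Il6*. Of the 12 members that rose and have an entry, 7 held the letters. The list was drawn up from genes of the NF-kB pathway, known targets among them, so its share is no test against that of all genes. A match is a description of the sequence and was not tested as a binding site in these cells.

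BMP signalling in lung endothelium runs through the receptors *Bmpr2* and *Acvrl1* (ALK1) with the co-receptor *Eng*, and loss of *Bmpr2* function is a known cause of pulmonary arterial hypertension. Of 10 receptors of the BMP and TGF-β family, 6 fell and 2 rose, with a median log2 fold change of -0.47, while 3 of 10 fell in members with 5 or more aCAP genes and 4 of 10 in those with fewer than 3 gCAP markers. Without WT of 14 weeks, and likewise without WT of 20 weeks, 3 fell and 1 rose. *Bmpr2* (ENSMUSG00000067336, chr1:59763400-59879014, plus strand, GRCm38) was at 1376, 1573, and 1477 CPM in WT against 768, 1089.7, and 882 CPM in TNF-Tg, with every TNF-Tg library below every WT library (-0.72 ± 0.13 on the log2 scale, adjusted p = 0.00522). In members with 5 or more aCAP genes the difference was -0.43 (adjusted p = 0.0907), and in those with fewer than 3 gCAP markers -0.36 (adjusted p = 0.105), so the call did not hold there. *Acvrl1* was at 1532, 1673, and 1704 CPM in WT against 945, 831, and 809.9 CPM in TNF-Tg (-0.95 ± 0.10 on the log2 scale, adjusted p = 0.000348), and it remained lower in the members with 5 or more aCAP genes (-0.80, adjusted p = 0.000447). *Eng* (-0.60), *Tgfbr3* (-0.79, but -0.51, adjusted p = 0.115 with 5 or more aCAP genes), *Acvr2a* (-0.44), and *Acvr2b* (-0.49) fell as well. The TGF-β receptor genes *Tgfbr2* and *Tgfbr1* ran the other way, unlike *Tgfbr3*. *Tgfbr2* was at 97.4, 106, and 108 CPM in WT against 165, 179.6, and 189 CPM in TNF-Tg (0.76 ± 0.09 on the log2 scale, adjusted p = 0.000922), and *Tgfbr1* differed by 0.62 on the log2 scale. *Eng* lost its edgeR call without WT 14 or WT 20 (-0.60 to -0.57) and *Tgfbr1* without WT 14 or WT 20 (0.50 to 0.59).

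Among 8 ligands of the family, 3 rose and 2 fell. *Bmp2* was at 3.01, 2.11, and 1.405 CPM in WT against 29.2, 29.5, and 30.9 CPM in TNF-Tg (3.73 ± 0.21 on the log2 scale, adjusted p = 3.33e-05), a low level in WT and a high one in every TNF-Tg library. *Inhba*, a subunit of activin A, was at 2.05, 1.62, and 1.56 CPM in WT against 10.5, 14.3, and 16.9 CPM in TNF-Tg (2.94 ± 0.26 on the log2 scale, adjusted p = 0.000203), and in gCAP comparison cells it did not exceed 0.752 CPM. *Tgfb2* was at 12.4, 13.6, and 8.43 CPM in WT against 44.1, 83.4, and 96.9 CPM in TNF-Tg (2.67 ± 0.30 on the log2 scale, adjusted p = 0.000645), and in the members with 5 or more aCAP genes the difference was 4.78 (adjusted p = 1.92e-05). The remaining pair fell. *Bmp4* was at 25.6, 32.3, and 22.6 CPM in WT against 6.29, 8.92, and 9.78 CPM in TNF-Tg (-1.73 ± 0.20 on the log2 scale, adjusted p = 0.000722), a call that did not hold with 5 or more aCAP genes (-0.92, adjusted p = 0.114), and *Bmp6* was at 149.6, 168, and 129.7 CPM in WT against 89.1, 94.5, and 76.2 CPM in TNF-Tg (-0.80 ± 0.12 on the log2 scale, adjusted p = 0.00248). Of 13 SMADs, BMP inhibitors, and targets, 4 rose, namely *Smad3* (1.95, or 3.96 with 5 or more aCAP genes), *Bambi* (1.06), *Smad1* (0.82), and *Smad5* (0.72). The 5 that fell were *Bmper* (-2.92), *Smad6* (-0.92), *Smad7* (-0.46), *Id2* (-0.65), and *Id1* (-0.55), where *Smad6*, *Smad7*, *Id1*, and *Id2* are known targets of BMP signalling. *Bambi* lost its edgeR call without WT 8, WT 14, WT 20, TNF-Tg 14, or TNF-Tg 20 (0.84 to 1.27), *Smad1* without WT 8, WT 14, WT 20, or TNF-Tg 14 (0.76 to 0.85), *Smad6* without WT 8 or WT 14 (-0.90 to -0.88), and *Id1* without WT 14 or WT 20 (-0.52 to -0.51). With 5 or more aCAP genes the calls of *Bambi* (0.42, adjusted p = 0.427) and *Smad6* (-0.71, adjusted p = 0.0554) did not hold, nor did those of *Bambi* (0.68, adjusted p = 0.317) and *Bmp4* (-1.39, adjusted p = 0.174) with fewer than 3 gCAP markers. Among the SMADs, inhibitors, and targets, 2 rose when any 1 WT library was left out, and 2 fell without WT 14 and 3 without WT 8 or WT 20.

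Of 18 basement membrane genes, 11 rose and 1 fell in TNF-Tg, with a median log2 fold change of 1.03, against 12.5% and 11.5% of all genes. In members with 5 or more aCAP genes 11 of 17 rose, and with fewer than 3 gCAP markers 7 of 16 did. Perlecan (*Hspg2*) was at 14.5, 7.47, and 10.3 CPM in WT against 131, 189.7, and 212 CPM in TNF-Tg (4.004 ± 0.25 on the log2 scale, adjusted p = 5.59e-05), and *Col18a1*, the source of endostatin, was at 15.8, 9.59, and 14.8 CPM in WT against 82.7, 138, and 132 CPM in TNF-Tg (3.09 ± 0.24 on the log2 scale, adjusted p = 0.000132). The type IV collagen chain *Col4a1* was at 960.4, 649.9, and 705 CPM in WT against 2128, 2218, and 1907 CPM in TNF-Tg (1.41 ± 0.15 on the log2 scale, adjusted p = 0.000429), and its partner *Col4a2* was at 654, 425, and 407 CPM in WT against 1231, 1319, and 1046 CPM in TNF-Tg (1.25 ± 0.18 on the log2 scale, adjusted p = 0.00216). TNF-Tg libraries were above WT libraries in each case, and WT of 8 weeks was the highest WT library. In members with fewer than 3 gCAP markers *Col4a1* differed by 0.88, and the call of *Col4a2* did not hold (0.68, adjusted p = 0.0559). The collagen-binding protein *Sparc* was at 640.4, 340.2, and 350.5 CPM in WT against 1565, 1866, and 1547 CPM in TNF-Tg (1.88 ± 0.24 on the log2 scale, adjusted p = 0.000976), and *Cd34*, a surface sialomucin placed in this list, was at 689.7, 476, and 641 CPM in WT against 958, 1099, and 1084 CPM in TNF-Tg (0.77 ± 0.14 on the log2 scale, adjusted p = 0.00534). *Col15a1* (2.25) rose, with 1.56 (adjusted p = 0.269) in members with 5 or more aCAP genes. *Col4a4*, a chain of the alveolar basement membrane, was the member that fell (-1.93). *Igfbp7*, a secreted binding protein of growth factors, was at 4178, 4082, and 4069 CPM in WT against 4263, 6029.6, and 5002 CPM in TNF-Tg and did not pass (0.29 ± 0.11 on the log2 scale, adjusted p = 0.105), although it did without TNF-Tg of 8 weeks (0.40, adjusted p = 0.00948). *Col15a1* lost its edgeR call without WT 14, WT 20, or TNF-Tg 20 (1.79 to 2.35) and *Col4a4* without WT 14 or WT 20 (-2.003 to -1.41).

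Of 11 integrins, which bind this matrix, 3 rose and 3 fell. *Itga2*, a collagen receptor subunit, was at 92.4, 84.3, and 116 CPM in WT against 214, 188, and 159.5 CPM in TNF-Tg (0.92 ± 0.15 on the log2 scale, adjusted p = 0.00347), and every TNF-Tg library lay above every WT library. *Itgb1* (0.64) and *Itga5* (0.63) rose, and *Itga1* (-1.05), *Itgb5* (-0.99), and *Itga3* (-0.46) fell. *Itga5* lost its edgeR call without WT 8, WT 14, WT 20, TNF-Tg 14, or TNF-Tg 20 (0.40 to 0.71) and with age as a block (adjusted p = 0.0575), and *Itga3* lost it without WT 8, WT 14, or WT 20 (-0.52 to -0.43). Neither passed with 5 or more aCAP genes, with *Itga5* (0.79, adjusted p = 0.0671) and *Itga3* (-0.300, adjusted p = 0.188), and with fewer than 3 gCAP markers *Itga5* was at 1.55 (adjusted p = 0.076). Without TNF-Tg of 8 weeks 5 integrins rose.

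**Figure D3:**
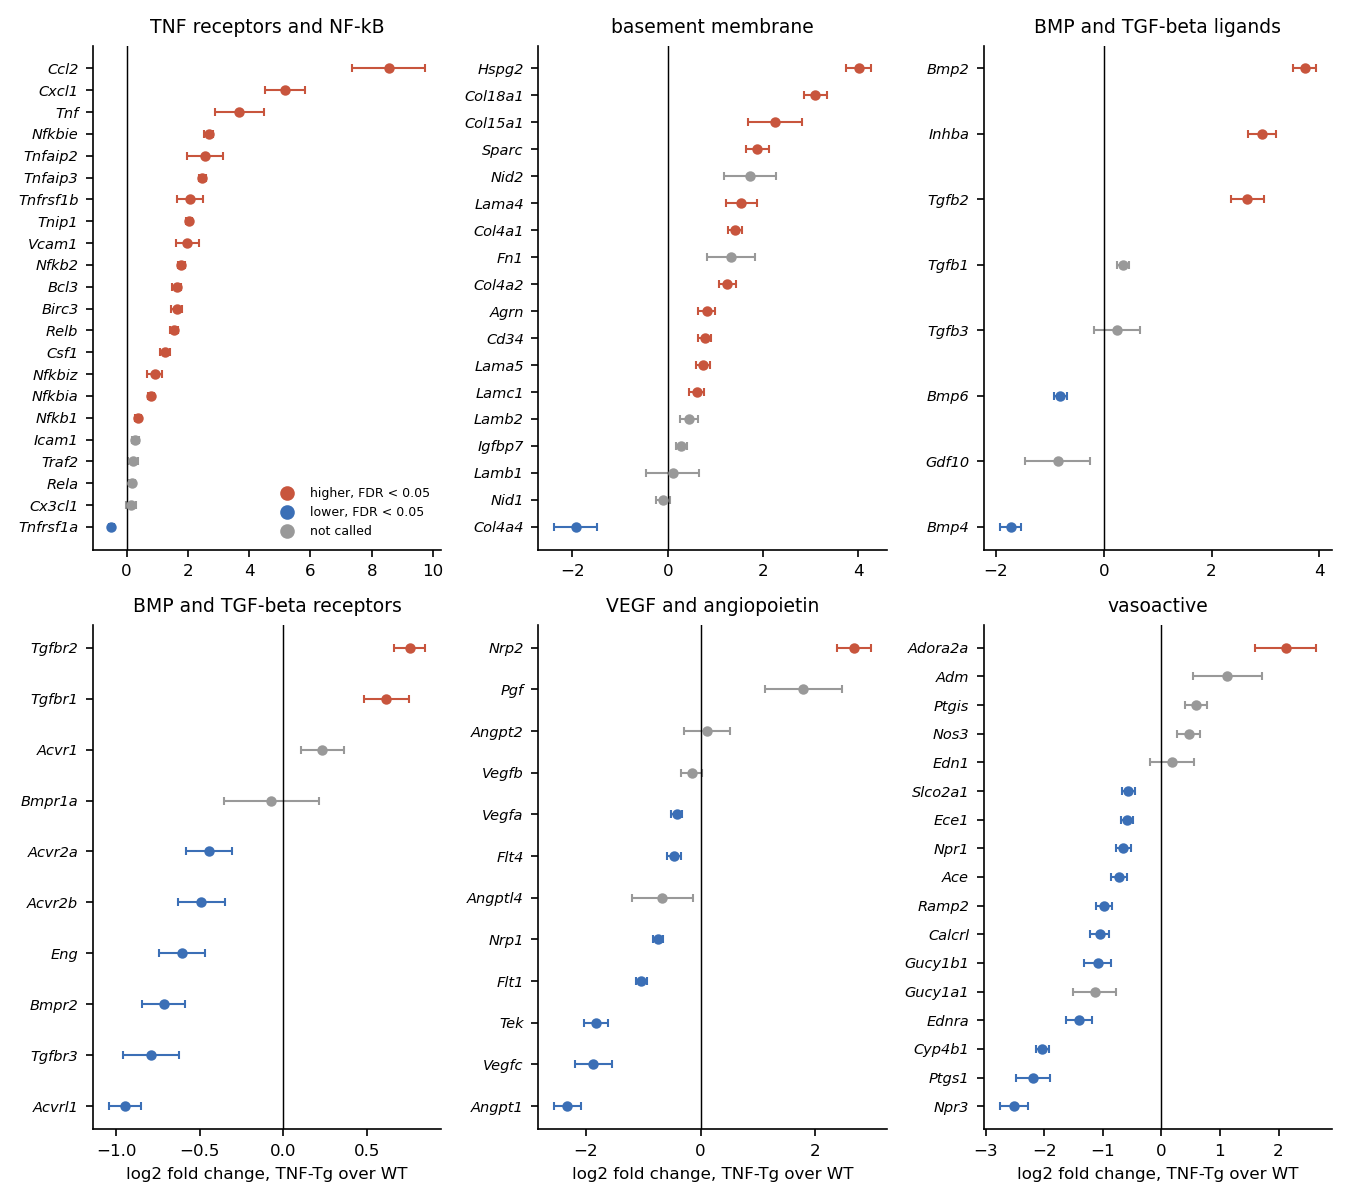
Log2 fold change of TNF-Tg over WT in aCAP-like cells (x axis, scaled by panel) with its SE as a bar, for the tested members of 6 gene lists, coloured by the edgeR call. Most NF-kB and basement membrane genes lie right of 0, most vasoactive genes and VEGF and angiopoietin genes lie left of it, and the BMP and TGF-β ligands and receptors fall on both sides.

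The VEGF and angiopoietin pathway, which maintains the alveolar capillaries, had 7 of 12 genes that fell, 1 that rose, and a median log2 fold change of -0.57. In members with 5 or more aCAP genes 5 of 10 fell (median -0.67), and with fewer than 3 gCAP markers 3 of 10 did (median -0.63). Beside *Kdr*, the decoy VEGF receptor *Flt1* was at 646, 743, and 752 CPM in WT against 335, 367, and 361 CPM in TNF-Tg (-1.03 ± 0.10 on the log2 scale, adjusted p = 0.000273, or -0.66 with 5 or more aCAP genes), and the co-receptor *Nrp1* fell by 0.74 on the log2 scale. The angiopoietin receptor *Tek* was at 233, 270.1, and 246 CPM in WT against 97.9, 64.1, and 53.01 CPM in TNF-Tg (-1.82 ± 0.21 on the log2 scale, adjusted p = 0.00067), with no overlap and the lowest value in TNF-Tg of 20 weeks. Of the ligands, *Vegfc* (-1.87) and *Angpt1* (-2.32) fell, the latter losing its call with 5 or more aCAP genes (-1.002, adjusted p = 0.188). *Vegfa* was at 119.7, 128, and 126 CPM in WT against 93.2, 106, and 85.2 CPM in TNF-Tg (-0.42 ± 0.10 on the log2 scale, adjusted p = 0.0163), and with 5 or more aCAP genes it differed by -0.12 (adjusted p = 0.743). *Vegfa* lost its edgeR call without WT 14, WT 20, or TNF-Tg 20 (-0.41 to -0.35). With fewer than 3 gCAP markers *Vegfa* (-0.049, adjusted p = 0.9) and *Angpt1* (-1.34, adjusted p = 0.0513) did not pass. *Nrp2*, a co-receptor of VEGFC and semaphorins, was the member that rose, at 11.2, 12.02, and 11.7 CPM in WT against 43.3, 87.3, and 97.4 CPM in TNF-Tg (2.67 ± 0.29 on the log2 scale, adjusted p = 0.000503), and by 4.45 in members with 5 or more aCAP genes. Without TNF-Tg 8, 2 genes of the pathway rose.

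Of 17 genes of vascular tone, 11 fell and 1 rose, with a median log2 fold change of -0.73, against 11.5% and 12.5% of all genes. In members with 5 or more aCAP genes 7 of 15 fell (median -0.55), and with fewer than 3 gCAP markers 5 of 13 did (median -0.62). *Cyp4b1*, a cytochrome P450 of lung endothelium, was at 1773, 2034, and 2058 CPM in WT against 543, 461, and 455 CPM in TNF-Tg (-2.03 ± 0.11 on the log2 scale, adjusted p = 2.82e-05). The natriuretic peptide clearance receptor *Npr3* (-2.51), the cyclooxygenase *Ptgs1* (-2.19), and the endothelin A receptor *Ednra* (-1.40) fell too, and in members with fewer than 3 gCAP markers *Ptgs1* was at 0.03 (adjusted p = 0.988) and *Ednra* at -1.43 (adjusted p = 0.248). The adrenomedullin receptor gene *Calcrl* was at 2655, 2831, and 2762 CPM in WT against 1641, 1383, and 1015 CPM in TNF-Tg (-1.05 ± 0.16 on the log2 scale, adjusted p = 0.00227), lower at each later age in TNF-Tg, and its partner *Ramp2* (-0.98) and angiotensin-converting enzyme (*Ace*, -0.73) fell. These 3 were picked after their values were seen. The adenosine receptor *Adora2a* rose (2.12). Endothelin 1 (*Edn1*), the ligand of *Ednrb*, was at 81.2, 85.1, and 66.8 CPM in WT against 38.2, 93.3, and 139 CPM in TNF-Tg, with the TNF-Tg libraries on both sides of WT (0.18 ± 0.37 on the log2 scale, adjusted p = 0.773), and without TNF-Tg of 8 weeks it passed (0.55, adjusted p = 0.0371). *Adora2a* lost its edgeR call without WT 8, WT 14, or WT 20 (1.74 to 2.37). Of the genes of vascular tone, 4 rose without TNF-Tg 8 and 2 without TNF-Tg 14.

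Caveolar and junction genes were mostly lower, with 9 of 13 that fell and 2 that rose (median -0.52). *Cav1*, the main coat protein of caveolae, was at 1150.1, 1224, and 1184 CPM in WT against 713, 499, and 415 CPM in TNF-Tg (-1.15 ± 0.18 on the log2 scale, adjusted p = 0.00286), and *Cavin2*, which shapes them, was at 1730.5, 1759, and 1866 CPM in WT against 806, 883, and 739 CPM in TNF-Tg (-1.17 ± 0.09 on the log2 scale, adjusted p = 0.00014). The genotypes did not overlap for either gene. *Cav2* (-1.13) and the lipid phosphatase *Plpp3* (-1.24) fell, and *Cavin3* (0.87) and the junction gene *F11r* (0.37) rose. *F11r* lost its edgeR call without WT 8, WT 14, WT 20, or TNF-Tg 20 (0.35 to 0.41). It was at 0.25 (adjusted p = 0.171) with 5 or more aCAP genes and at 0.21 (adjusted p = 0.282) with fewer than 3 gCAP markers.

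Of 12 genes in the list for coagulation, 5 rose and 3 fell, among the latter *Lyve1*, which the list holds although it is a hyaluronan receptor. The thrombin receptor *F2r* was at 61.8, 52.6, and 67.9 CPM in WT against 394, 292, and 289.7 CPM in TNF-Tg (2.40 ± 0.16 on the log2 scale, adjusted p = 6.69e-05), and the plasminogen activator *Plat* was at 29.9, 21.8, and 24.04 CPM in WT against 79.5, 97.3, and 90.6 CPM in TNF-Tg (1.79 ± 0.13 on the log2 scale, adjusted p = 0.000111). Every TNF-Tg library was above every WT library for both genes. The protein C receptor *Procr* (2.84) rose, while thrombomodulin (*Thbd*, -0.81) and *Vwf* were the others that fell.

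Of 22 interferon-response genes, 3 rose and 5 fell, with a median log2 fold change of -0.14, against 12.5% and 11.5% of all genes, so the share that rose was near that of all genes and the share that fell above it. The count that fell was 1 without WT 8 or WT 14, 2 without TNF-Tg 14, 3 without WT 20, 4 without TNF-Tg 20, 8 without TNF-Tg 8, and 7 with age as a block. In edgeR the count that rose was 0 without WT 14 or WT 20, 1 without TNF-Tg 20, 2 without TNF-Tg 14, 3 without WT 8, and 5 without TNF-Tg 8. The risers were *Cxcl10* (2.86), *Ifit2* (1.14), and *Ifitm3* (0.34, or 0.84 with 5 or more aCAP genes and 1.63 with fewer than 3 gCAP markers). The GTPase genes *Iigp1* (-0.69), *Gbp2* (-0.68), *Igtp* (-0.65), and *Gbp7* (-0.47) were among those that fell, and with the members of 3 or more gCAP markers left out 3 rose and 0 of the list fell. *Cxcl10* lost its edgeR call without WT 14, WT 20, TNF-Tg 14, or TNF-Tg 20 (2.25 to 3.03) and with age as a block (adjusted p = 0.0553), *Ifit2* without WT 14 or WT 20 (1.06 to 1.07), *Ifitm3* without WT 8, WT 14, WT 20, or TNF-Tg 20 (0.31 to 0.37), *Iigp1* without WT 8, WT 14, WT 20, or TNF-Tg 14 (-0.78 to -0.51), *Gbp2* without WT 8, WT 14, WT 20, or TNF-Tg 14 (-0.71 to -0.53), and *Gbp7* without WT 8 or WT 14 (-0.48 to -0.43). Of 10 MHC genes, *Cd74*, the invariant chain (0.75), rose and *H2-T23* (-0.58) fell (median -0.11). *Cd74* lost its edgeR call without WT 14 or WT 20 (0.65 to 0.73) and *H2-T23* without WT 8, WT 14, WT 20, TNF-Tg 14, or TNF-Tg 20 (-0.64 to -0.49). With 5 or more aCAP genes *Iigp1* (-0.79, adjusted p = 0.0758), *Gbp7* (-0.13, adjusted p = 0.42), *Cd74* (0.899, adjusted p = 0.0748), and *H2-T23* (-0.48, adjusted p = 0.0792) did not pass. Without TNF-Tg 8, 3 MHC genes fell, and without TNF-Tg 14, 2 rose. Of the genes not called with fewer than 3 gCAP markers, *Igtp* was at -0.44, *Cd74* at 0.44, and *H2-T23* at -0.39.

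Endothelial transcription factors gave 5 that rose and 4 that fell of 16 (median -0.08). *Tcf15* (3.27), *Gata6* (1.60), *Sox17* (0.84), and *Erg* (0.62) rose, and the flow-responsive *Klf2* (-0.73), the hypoxia factor *Epas1* (-0.70), *Foxo1* (-0.61), and *Gata2* (-0.51) fell. *Epas1* was at 0.06 (adjusted p = 0.829) in members with fewer than 3 gCAP markers, and *Sox17* was at -0.02 (adjusted p = 0.979). The calls of *Gata2* (-0.34, adjusted p = 0.0668), *Foxo1* (-0.53, adjusted p = 0.062), and *Gata6* (1.95, adjusted p = 0.0551) did not hold there either, and with 5 or more aCAP genes *Gata2* (-0.32, adjusted p = 0.114), *Epas1* (-0.23, adjusted p = 0.304), and *Sox17* (0.57, adjusted p = 0.328) did not pass. After thinning to 2000 UMIs *Gata2* was at -0.26 (adjusted p = 0.251) and *Foxo1* at -0.30 (adjusted p = 0.397). The CREB-family gene *Creb5* was at 46.9, 57.7, and 62.3 CPM in WT against 53.2, 68.8, and 68.6 CPM in TNF-Tg (0.17 ± 0.14 on the log2 scale, adjusted p = 0.433), with overlapping groups. *Klf2* lost its edgeR call without WT 8 or WT 20 (-0.72 to -0.66) and *Sox17* without WT 14 or WT 20 (0.76 to 0.80). Without WT 14, and likewise without WT 20, 3 of the factors rose. After thinning to 2000 UMIs, and likewise with fewer than 3 gCAP markers, 2 of 13 rose and 1 fell. With 5 or more aCAP genes 3 of 15 rose and 2 fell.

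Among 18 genes of cell death, 5 rose and 4 fell (median 0.27). Among those named by size were *Bid* (2.04), *Bak1* (0.54), and *Mlkl* (0.53) of the higher and *Ripk3* (-1.20), *Bcl2l1* (-0.89), *Fas* (-0.53), and *Xiap* (-0.39) of the lower genes. These encode effectors and inhibitors of apoptosis and necroptosis alike. *Bak1* lost its edgeR call without WT 14 or WT 20 (0.44 to 0.52), *Mlkl* without WT 8, WT 14, WT 20, TNF-Tg 8, or TNF-Tg 20 (0.42 to 0.61), *Ripk3* without WT 8, WT 20, or TNF-Tg 14 (-1.21 to -1.07), *Fas* without WT 8, WT 20, TNF-Tg 14, or TNF-Tg 20 (-0.51 to -0.45), and *Xiap* without WT 14 (-0.38). The calls of *Bak1* (0.38, adjusted p = 0.104) and *Xiap* (-0.28, adjusted p = 0.0907) did not hold with fewer than 3 gCAP markers. Without 1 library 1 (WT 14, WT 20), 2 (TNF-Tg 20), or 3 (WT 8) of the death genes rose, and 2 fell without WT 8, WT 20, or TNF-Tg 14. Of 10 Notch genes, *Jag2* (0.62) rose and *Hey1* (-0.50) and *Notch4* (-0.47) fell (median -0.41). *Jag2* lost its edgeR call without WT 14, WT 20, TNF-Tg 14, or TNF-Tg 20 (0.52 to 0.60) and *Hey1* without WT 14, WT 20, or TNF-Tg 20 (-0.49 to -0.40), and without any of these last 3 libraries 1 Notch gene fell. Neither passed with 5 or more aCAP genes, with *Jag2* (0.52, adjusted p = 0.0583) and *Hey1* (-0.48, adjusted p = 0.257), nor with fewer than 3 gCAP markers, with *Jag2* (0.46, adjusted p = 0.0954) and *Hey1* (-0.76, adjusted p = 0.241).

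Of 14 glycolysis genes, *Ldha* (0.65), *Eno1* (0.64), *Hk1* (0.35), and *Gpi1* (0.32) rose and *Aldoa* (-0.40) fell (median 0.24), while in members with fewer than 3 gCAP markers 0 rose and 1 fell in edgeR, with *Eno1* at 0.19 (adjusted p = 0.431). *Hk1* lost its edgeR call without WT 8, WT 14, WT 20, TNF-Tg 14, or TNF-Tg 20 (0.28 to 0.37), *Gpi1* without WT 8, WT 14, WT 20, TNF-Tg 14, or TNF-Tg 20 (0.26 to 0.35), and *Aldoa* without WT 8, WT 14, or WT 20 (-0.43 to -0.39). With 5 or more aCAP genes *Eno1* (0.203, adjusted p = 0.374) and *Gpi1* (0.26, adjusted p = 0.119) did not pass. Of the glycolysis genes, 7 rose without TNF-Tg 8 and 2 without any other single library. With cells thinned to 2000 UMIs the balance turned, and of 13 glycolysis genes 0 rose and 3 fell (median 0.068). Genes of dissociation and heat shock gave 1 of 9 that rose, *Junb* (1.19), and 1 that fell, *Jun* (-0.55). *Jun* lost its edgeR call without WT 8, WT 14, or TNF-Tg 14 (-0.53 to -0.51). Without TNF-Tg 8, 4 of these 9 genes rose (median 0.45, against 0.24 with all libraries), and with fewer than 3 gCAP markers 2 did (median 0.91).

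Markers of other cell types were put to the same test. Of 8 mesenchymal markers, *Acta2* (2.01) and the smooth muscle myosin *Myh11* (1.63) rose and *Pdgfra* (-1.77) fell (median 0.58), and the calls of *Acta2* and *Myh11* did not hold with Scrublet doublets removed (1.62, adjusted p = 0.161, and 1.40, adjusted p = 0.216). In members with 5 or more aCAP genes 0 of the 8 passed in edgeR, with *Acta2* at 1.32 (adjusted p = 0.359) and *Myh11* at 0.023 (adjusted p = 0.988). *Pdgfra* was at -0.598 (adjusted p = 0.659) there. With fewer than 3 gCAP markers *Acta2* (2.13, adjusted p = 0.276) and *Myh11* (1.91, adjusted p = 0.217) did not pass. *Acta2* lost its edgeR call without WT 8, WT 14, WT 20, or TNF-Tg 14 (1.27 to 2.35) and with age as a block (adjusted p = 0.068), *Myh11* without WT 8, WT 14, or WT 20 (1.54 to 1.79), and *Pdgfra* without WT 8, WT 14, WT 20, or TNF-Tg 14 (-1.85 to -1.45). Of 4 immune markers tested, *Lyz2* and *Tyrobp* rose, the latter with 1 UMI in WT and 298 in TNF-Tg (ratio of CPM 215, exact 95% interval 38.3 to 8532). None of 4 haemoglobin genes (median -0.91), 5 epithelial markers (median -0.03), or 1 lymphatic marker (log2 fold change 3.34) passed in edgeR, where 0, 3, and 1 had an unadjusted p under 0.05, and DESeq2 called 2 epithelial markers lower. With age as a block the edgeR calls changed, and all 4 haemoglobin genes (median -1.18) and 1 epithelial marker were lower and the lymphatic marker (3.21) was higher in TNF-Tg. Leaving out TNF-Tg 8 also gave calls, with 3 of 3 lymphatic markers (median 3.93) and 1 of 5 epithelial markers higher and 2 of 4 haemoglobin genes lower (median -5.51). It raised the mesenchymal markers that rose to 4 of 8 and the immune markers that rose to 4 of 5, while without WT 14 or WT 20 these counts were 0 of 8 and 1 of 7. For the epithelial markers, 1 was higher without TNF-Tg 20 or with 5 or more aCAP genes, and 1 was lower without WT 8. With no filter on low counts 3 of 4 lymphatic markers were higher, and of 7 epithelial markers 1 was higher and 2 were lower.

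Whether TNF-Tg changed aCAP-like cells by another amount than gCAP comparison cells of the same libraries was tested as the interaction of cell type and genotype, with the library as a block. Of 13542 genes, 13.1% were called, 6.34% with the more positive change in aCAP-like cells and 6.79% with the more negative one. Those 858 and 920 genes became 173 to 1344 and 167 to 1824 when each library was left out in turn, lowest without WT of 14 weeks and highest without TNF-Tg of 8 weeks. For *Ednrb* the change was more negative in aCAP-like cells, and in gCAP comparison cells it was at 7.75, 9.14, and 7.39 CPM in WT against 6.51, 10.6, and 14.01 CPM in TNF-Tg (aCAP minus gCAP change -2.41 ± 0.40, adjusted p = 0.00816). *Kdr* was at 389, 413, and 422 CPM in WT against 298, 411, and 467 CPM in TNF-Tg in gCAP comparison cells, and its change was also more negative in aCAP-like cells (-0.73 ± 0.19, adjusted p = 0.0333), a call that was lost without WT 8, WT 14, WT 20, TNF-Tg 14, or TNF-Tg 20 (-0.77 to -0.52) and with cells thinned to 2000 UMIs (-0.56, adjusted p = 0.0596). For *Bmpr2* the order was reversed. Its level in gCAP comparison cells was 1593, 1783, and 1683 CPM in WT against 683, 637, and 525 CPM in TNF-Tg, a larger fall than in aCAP-like cells (0.72 ± 0.13, adjusted p = 0.0125), but not past the threshold without WT 8, WT 14, or TNF-Tg 14 (0.58 to 0.72). *Cyp4b1*, at 494, 795, and 650.0 CPM in WT against 57.6, 32.3, and 36.1 CPM in TNF-Tg in gCAP comparison cells, likewise fell by less in aCAP-like cells (1.91 ± 0.16, adjusted p = 0.000385).

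Several genes with a more negative change in aCAP-like cells were at a high level in aCAP-like cells of both genotypes and rose in gCAP comparison cells. *Igfbp7* (ENSMUSG00000036256, chr5:77349240-77408041, minus strand, GRCm38), described above, was at 218, 252, and 230.0 CPM in WT against 1953, 3944, and 4994 CPM in TNF-Tg in gCAP comparison cells (-3.60 ± 0.25, adjusted p = 0.000315). The homeobox gene *Meox1* was at 136, 119.9, and 135 CPM in WT against 331, 346, and 385 CPM in TNF-Tg in aCAP-like cells and at 14.4, 10.8, and 12.1 CPM in WT against 148, 242, and 297 CPM in TNF-Tg in gCAP comparison cells (-2.75 ± 0.21, adjusted p = 0.000323). In these genes the WT levels differed by cell type and the TNF-Tg levels lay closer together in ratio. *Ccdc184* was at 89.9, 80.9, and 116 CPM in WT against 274, 249, and 269 CPM in TNF-Tg in aCAP-like cells and at 1.49, 1.13, and 1.31 CPM in WT against 26.3, 67.2, and 59.4 CPM in TNF-Tg in gCAP comparison cells (-3.77 ± 0.47, adjusted p = 0.0028). *AW112010* was at 766, 817, and 920.1 CPM in WT against 1431, 1089.5, and 1402 CPM in TNF-Tg in aCAP-like cells and at 27.4, 35.4, and 36.6 CPM in WT against 177, 309, and 482 CPM in TNF-Tg in gCAP comparison cells (-2.58 ± 0.33, adjusted p = 0.00312). Both genes rose in both cell types, and by less in aCAP-like cells. *Cd34* was at 165, 111, and 139 CPM in WT against 599, 863, and 810.4 CPM in TNF-Tg in gCAP comparison cells (-1.68 ± 0.12, adjusted p = 0.000315), and *Col4a1* was at 863, 664, and 778 CPM in WT against 2571, 3565, and 3225 CPM in TNF-Tg (-0.60 ± 0.14, adjusted p = 0.0241), where the interaction of *Col4a1* was lost without WT 8, WT 14, WT 20, TNF-Tg 14, or TNF-Tg 20 (-0.65 to -0.49).

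In the other direction the chemokine scavenger receptor *Ackr3* was at 38.4, 27.8, and 21.1 CPM in WT against 59.3, 64.7, and 88.7 CPM in TNF-Tg in aCAP-like cells and at 106, 74.9, and 88.6 CPM in WT against 48.7, 45.8, and 38.3 CPM in TNF-Tg in gCAP comparison cells, so its genotypes were ordered oppositely in each cell type (2.26 ± 0.22, adjusted p = 0.000998). *Slc16a9* (2.13) and *Krt80* (1.95) had a less negative change in aCAP-like cells, and the muscle genes *Myh11* (2.30) and *Des* (1.94) a more positive change. For *Myh11* that call was lost without WT of 14 weeks (2.54) or WT of 20 weeks (1.51) and with 5 or more aCAP genes (0.79, adjusted p = 0.511). With cells thinned to 2000 UMIs neither gene passed, with *Des* at 0.26 (adjusted p = 0.864) and *Myh11* at -0.15 (adjusted p = 0.8696). By list, the change was more positive in aCAP-like cells for 13 of 23 interferon-response genes and 9 of 19 vasoactive genes, and more negative for 11 of 20 basement membrane genes, against 6.34% and 6.79% of all genes. Leaving out 1 library at a time gave 3 to 14, 2 to 9, and 5 to 11 genes, lowest for the interferon-response genes without WT of 14 weeks and for the basement membrane genes without WT of 8 weeks, while the vasoactive genes came to 2 without each single WT library. With cells thinned to 2000 UMIs the counts were 7 of 21, 7 of 17, and 7 of 18. A more positive change can be a smaller fall, since 11 of 17 vasoactive and 5 of 22 interferon-response genes fell in aCAP-like cells. Other lists also lay above the share of all genes. Among them, 5 of 16 endothelial transcription factors had a more positive and 2 a more negative change, and 4 of 14 glycolysis genes a more negative one. The change of *Plat* was more positive in aCAP-like cells as well (0.996 ± 0.16, adjusted p = 0.008).

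**Figure D4:**
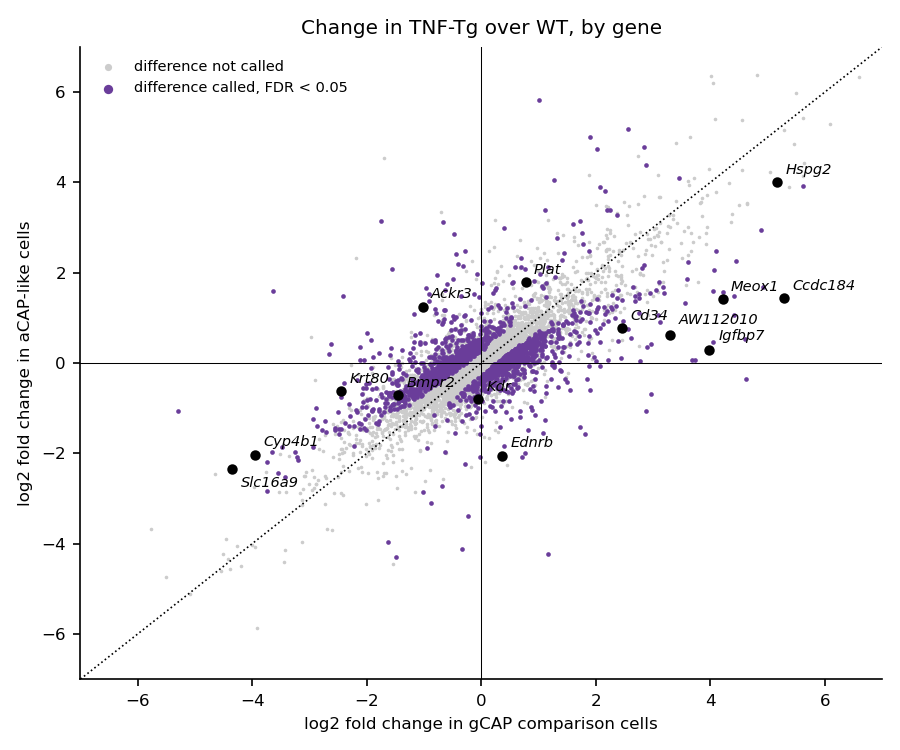
Log2 fold change of TNF-Tg over WT by gene in gCAP comparison cells (x axis) and aCAP-like cells (y axis), for 11778 genes, of which 14 lie outside the axes. Both axes come from the same libraries, genes on the dotted line changed alike, purple marks genes whose difference was called in edgeR, and named genes are in black. *Ednrb* and *Kdr* lie below the line with little change in gCAP comparison cells, *Igfbp7*, *Meox1*, and *Ccdc184* lie far to the right, and *Bmpr2*, *Cyp4b1*, and *Ackr3* lie above the line.

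aCAP-like cells made up 20.8%, 17.9%, and 16.0% of the endothelial cells in WT (18.2% ± 2.46, SD, n = 3) and 20.3%, 21.5%, and 20.0% in TNF-Tg (20.6% ± 0.790, SD, n = 3). The difference of 2.35 percentage points did not exceed the spread between libraries (2-sided exact permutation p = 0.3, where 0.1 is the smallest possible). It was 1.22 points without WT of 20 weeks and 3.66 points without WT of 8 weeks. In the latter case the genotypes did not overlap (exact permutation p = 0.2, the smallest possible there). With counting error alone, the 95% intervals (Clopper-Pearson, exact) were 19.7% to 22.0% in WT and 19.2% to 21.4% in TNF-Tg at 8 weeks, 16.8% to 19.0% and 20.2% to 22.7% at 14 weeks, and 15.01% to 16.9% and 18.6% to 21.4% at 20 weeks. At 14 and 20 weeks the intervals of the genotypes did not overlap, but each age had 1 library a genotype. The direction depended on the setting. With all cells thinned to 2000 UMIs the difference was -1.05 points (exact permutation p = 0.5), with 5 or more aCAP genes -0.556 points (exact permutation p = 0.8), and as a share of all cells -0.749 points (exact permutation p = 0.8). It stayed positive with 4 or more aCAP genes (0.909 points, exact permutation p = 0.6), with members of 3 or more gCAP markers left out (2.05 points, exact permutation p = 0.2), with Scrublet doublets removed (2.28 points, exact permutation p = 0.3), and at 5% mitochondrial UMIs or fewer (0.475 points, exact permutation p = 0.9). Since *Fibin*, *Emp2*, *Tbx2*, and *Chst1* of the rule were lower in the members of every TNF-Tg library than of any WT library, while *Car4* and *Apln* overlapped, the number of aCAP cells and the level of these genes in a cell cannot be told apart in these shares. Outside the members, *Car4* was detected in 20.5, 25.3, and 31.4% of WT gCAP comparison cells against 48.5, 58.9, and 37.0% in TNF-Tg. *Emp2* ran the other way there, with 24.4, 17.1, and 15.2% against 7.97, 6.13, and 10.02%. The part of these differences in the shares was not tested.

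**Figure D5:**
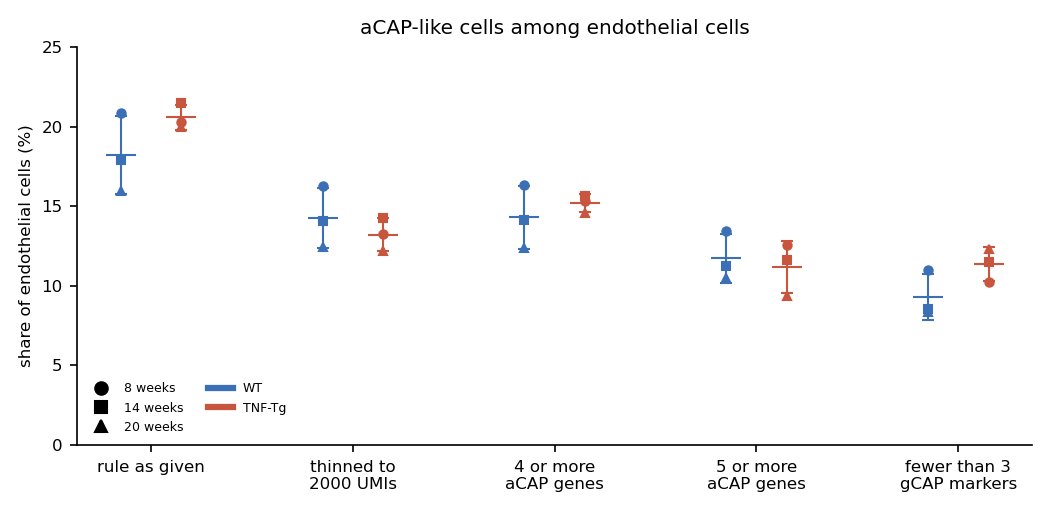
aCAP-like cells as a share of endothelial cells (percent, y axis) under the rule as given and 4 other settings. Points are libraries, shaped by age and coloured by genotype, and bars give the mean and SD of the 3 libraries of a genotype. The genotypes overlap under all 5 settings.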

How the data were processed

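Lung cells of 6 libraries, 1 for each genotype (WT, TNF-Tg) and age, were measured by 10x 3′ scRNA-seq. The authors deposited UMI counts, unnormalised whole numbers for 32285 genes per called barcode (43545 barcodes, aligned to GRCm38). File headers name Cell Ranger 5.0.0 for both 8-week libraries and 6.0.1 for the others, whereas the submitters' processing notes name 5.0.0 and mm10. Members were found in Python 3.11.15, and their UMIs were summed per library. The sums (6154405 to 11764758 UMIs) were compared in edgeR 4.0.16 (R 4.3.3; filterByExpr, TMM, quasi-likelihood F test), with Benjamini-Hochberg adjustment over all genes tested except the 24 genes of the rule, and a gene was called at an adjusted p under 0.05. Age was not in the model. The interaction test also left out the 8 gCAP markers. Errors of log2 fold changes are SEs. Shares were compared by 2-sided exact permutation tests (scipy 1.17.1). DESeq2 1.42.0, Scrublet (scanpy 1.11.5), other filters, scaling, thinning to 2000 UMIs, and other members were alternatives. Tests ran on simulated data first. Names were given to the 8 called genes of largest change in each direction with at least 50 CPM and no overlap, up to 4 called members of each list in each direction, a fixed set of genes, and the 5 largest interactions in each direction. The members, the lists, and these rules were chosen with earlier results of these data known. A few genes that these rules name are not reported here.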

Additional observations from a re-analysis of the deposited data

Results flagged for a closer look

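The results below are flagged because the change of TNF-Tg over WT differed between aCAP-like and gCAP comparison cells of the same libraries (interaction in edgeR, adjusted p under 0.05, aCAP minus gCAP change on the log2 scale, n = 6 libraries). More positive in aCAP-like cells were *Myh11* (2.30), *Ackr3* (2.26), *Slc16a9* (2.13), *Krt80* (1.95), *Des* (1.94), *Tnfrsf1b* (1.34), and *Bmpr2* (0.72). More negative were *Ccdc184* (-3.77), *Igfbp7* (-3.60), *Meox1* (-2.75), *AW112010* (-2.58), *Ednrb* (-2.41), *Cd34* (-1.68), *Hspg2* (-1.08), *Col4a2* (-0.77), *Creb5* (-0.76), *Kdr* (-0.73), *Col4a1* (-0.60), and *Icam1* (-0.36). For *Creb5*, *Icam1*, and *Igfbp7* the change within aCAP-like cells had not passed on its own. Leaving out 1 library ended the call in at least 1 case for *Icam1* (-0.44 to -0.32), *Kdr* (-0.77 to -0.52), *Col4a1* (-0.65 to -0.49), *Tnfrsf1b* (0.98 to 1.58), *Hspg2* (-1.07 to -0.94), *Bmpr2* (0.58 to 0.72), *Col4a2* (-0.78 to -0.73), and *Myh11* (1.51 to 2.54), where parentheses give the values without the libraries that ended it. With cells thinned to 2000 UMIs *Des* (0.26), *Myh11* (-0.15), *Hspg2* (-0.77), *Kdr* (-0.56), and *Icam1* (-0.28) did not pass, and with 5 or more aCAP genes *Myh11* (0.79) and *Hspg2* (-0.69) did not. *Icam1* also did not pass without TMM (-0.33) or with Scrublet doublets removed (-0.35). *Myh11* and *Des* are genes of smooth muscle and pericytes, whose markers also differed between the libraries, and their part in these values was not tested. Groups of 3 libraries are too small for a check of single outlying libraries.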

How the results depend on the processing

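DESeq2, edgeR without TMM, Scrublet doublet removal, at most 5% mitochondrial UMIs, no filter on low counts, 4 or more aCAP genes, and 5 or more aCAP genes (added after seeing the data) left the counts of genes higher (1501) and lower (1383) within 1.5 times, and every gene called both there and in the main comparison kept its direction. A minimum of 20 CPM gave 1000 higher, thinning to 2000 UMIs gave 697 higher and 655 lower (interaction 560 and 466, against 858 and 920), and leaving out members with 3 or more gCAP markers gave 887 lower. Leaving out 1 library gave 835 to 2016 higher and 784 to 1774 lower, and 173 to 1344 and 167 to 1824 for the interaction. For the aCAP share it gave 1.22 to 3.66 points, and for the gCAP-marker share -4.73 to -0.900. The aCAP share reversed over all cells (-0.749 points), after thinning (-1.05), and with 5 or more aCAP genes (-0.556), and the gCAP-marker share reversed without thinning (3.46). Among named genes, log2 fold changes reversed after thinning for *Myh11* (-0.70, interaction -0.15), *Edn1* (-0.20), *Igfbp7* (-0.076), and *Aplnr* (-0.41). They reversed with gCAP-marker members left out for *Ptgs1* (0.027), *Iigp1* (0.32), *Gbp2* (0.29), *Gbp7* (0.20), *Sox17* (-0.016), *Epas1* (0.055), *Creb5* (-0.023), and *Igfbp7* (-0.17). With 5 or more aCAP genes *Creb5* (-0.046) and *Igfbp7* (-0.059) reversed, with 4 or more *Edn1* (-0.19) and *Aplnr* (-0.030), without TNF-Tg of 20 weeks *Edn1* (-0.27 to 0.55 over all 6 libraries left out), and without TNF-Tg of 8 weeks *Aplnr* (-0.48 to 0.30). Of 146 calls of named genes, interaction included, 45 were lost without WT of 14 weeks, 42 without WT of 20 weeks, 31 without WT of 8 weeks, 22 without TNF-Tg of 14 weeks, 19 without TNF-Tg of 20 weeks, and 1 without TNF-Tg of 8 weeks. Among the calls that were recomputed, reversed ones included, 34 of 111 were lost with gCAP-marker members left out, 28 of 141 with 5 or more aCAP genes, 28 of 120 after thinning, 14 of 121 with 4 or more aCAP genes, 8 of 145 with Scrublet doublets removed, 8 of 123 at 5% mitochondrial UMIs, 4 of 124 each in DESeq2 and with age as a block, and 1 each without TMM, with no filter, and at 20 CPM. The causes were not tested. Age as a replicate block called 1620 higher and 1495 lower and reversed *Aplnr* (-0.032). The block ended the calls of *Sema3c*, *Acta2*, *Cxcl10*, and *Itga5* among the named genes, and it raised the Notch genes lower from 2 to 4 and the MHC genes lower from 1 to 2. Same-age libraries share their age and, at 8 weeks, a Cell Ranger version, and WT mice were littermates, but no source ties a litter to a pair of libraries. Deviations of same-age libraries from the genotype means correlated at 0.17 (8 weeks), 0.14 (14 weeks), and -0.03 (20 weeks), not all over 0.1, so age stayed an alternative. At 3 libraries a genotype an exact test of a share cannot go below 0.1, and genes at a few UMIs a library are limited by counting error.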
